A study of Mus musculus with 2 samples.

Results

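Endothelial cells and cells with an early blood program were compared in the mouse yolk sac at E8.75, together with the cells that carried both programs. Cells were chosen by the counts of a few marker genes per cell. Of 1817 deposited cells (460, 651 and 706 by tagged sample), 1740 had at least 500 detected genes and at most 10% mitochondrial unique molecular identifiers (UMIs, each standing for a captured transcript). Of these, 505 held less than 3% of their gene UMIs in 7 haemoglobin genes and less than 0.3% in the visceral endoderm genes Ttr, Apob and Apom. The endothelial side took the 111 cells of these with at least 2 UMIs of Cdh5, which encodes VE-cadherin, and at least 0.04% of UMIs in Cdh5, Ctla2a and Plvap. The blood-gated side took the 96 cells with at least 5 UMIs in Myb, Runx1, Fermt3, Plek and Rab27b together, at least 1 UMI of Lmo2, and at most 3 UMIs of Cdh5 and Plvap. The 207 cells of both sides did not overlap. Within the endothelial side, 29 cells also met the blood UMI and Lmo2 limits and are called double-positive.

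The yolk sacs were dissociated, their cells tagged with CellPlex oligonucleotides, pooled and sequenced as a single 10x gene expression library. The counts were deposited as 3 tagged samples, labelled Ctrl1, Ctrl2 and Ctrl3 and called tagged samples 1, 2 and 3 here. All carried the genotype Ttr-Cre/+; R26lsl-rtTA-EGFP/+, in which Ttr regulatory sequence drives Cre and the Rosa26 locus holds a Cre-dependent rtTA-EGFP allele, and no treated or Cre-free group was analysed here. Each tagged sample supplied cells to both sides, and p-values measure only the spread between tagged samples of 1 pool.

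The yolk sac forms the earliest blood and vessels of the embryo from mesoderm. Primitive red cells and megakaryocytes arise there, and erythro-myeloid progenitors later emerge from haemogenic endothelium, vessel-lining cells that switch on Runx1 while still carrying endothelial genes. Runx1 and Myb are transcription factors of blood progenitors. Fermt3 and Plek encode cytoskeletal adaptors of blood cells and platelets, and Rab27b a small GTPase of secretory granules. Plvap encodes a protein of endothelial fenestrae.

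Endothelial cells numbered 35, 37 and 39 in tagged samples 1, 2 and 3, blood-gated cells 34, 22 and 40, and double-positive cells 12, 8 and 9. No cell barcode was shared between tagged samples. The 6 summed profiles held 1188685 to 1979790 UMIs, and median depth per cell was 36299 UMIs on the endothelial side and 48216 on the blood-gated side. The design text describes 1 yolk sac from each of 3 embryos, yet each tagged sample held cells of both sexes. By at least 4 Xist UMIs and at most 1 Y-linked UMI, 181, 259 and 217 cells carried Xist. By at least 2 Y-linked and at most 1 Xist UMI, 150, 177 and 344 cells carried Y-linked transcripts. On the 2 sides together these counts were 26 and 29 in tagged sample 1, 35 and 5 in tagged sample 2, and 30 and 35 in tagged sample 3. How many embryos each tag held is not settled, and tagged samples served as replicates.

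The values that chose the cells are given as a description only. Cdh5 stood at 268, 341 and 333 CPM (counts scaled to a common library total) in the endothelial sums and at 3.04, 3.37 and 3.54 CPM in the blood-gated sums. Runx1 stood at 40.4, 34.0 and 60.8 CPM against 159, 138 and 122 CPM, and Myb at 1.78, 5.56 and 8.11 CPM against 41.9, 53.8 and 45.5 CPM. In the endothelial sums, Myb UMIs came from double-positive cells alone, while Runx1 was also found in 19 of the 82 other endothelial cells. Among cells meeting the other conditions, 2 had 1 Cdh5 UMI and 4 had 2. On the blood side, 2 cells just missed with 4 UMIs of the 5 genes and 7 passed with 5. At the Cdh5 and Plvap limit, 2 cells had 3 UMIs and 1 had 4. Globins gave no gap: 15 otherwise qualifying cells lay between 2.5% and the limit of 3%, and 24 lay from 3% up to 3.5%. Among the 505 cells low in globins and visceral endoderm genes, 4 met the blood UMI and Lmo2 limits but fell on neither side. The 1 with 4 UMIs of Cdh5 and Plvap was among them.

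**Figure D1:**
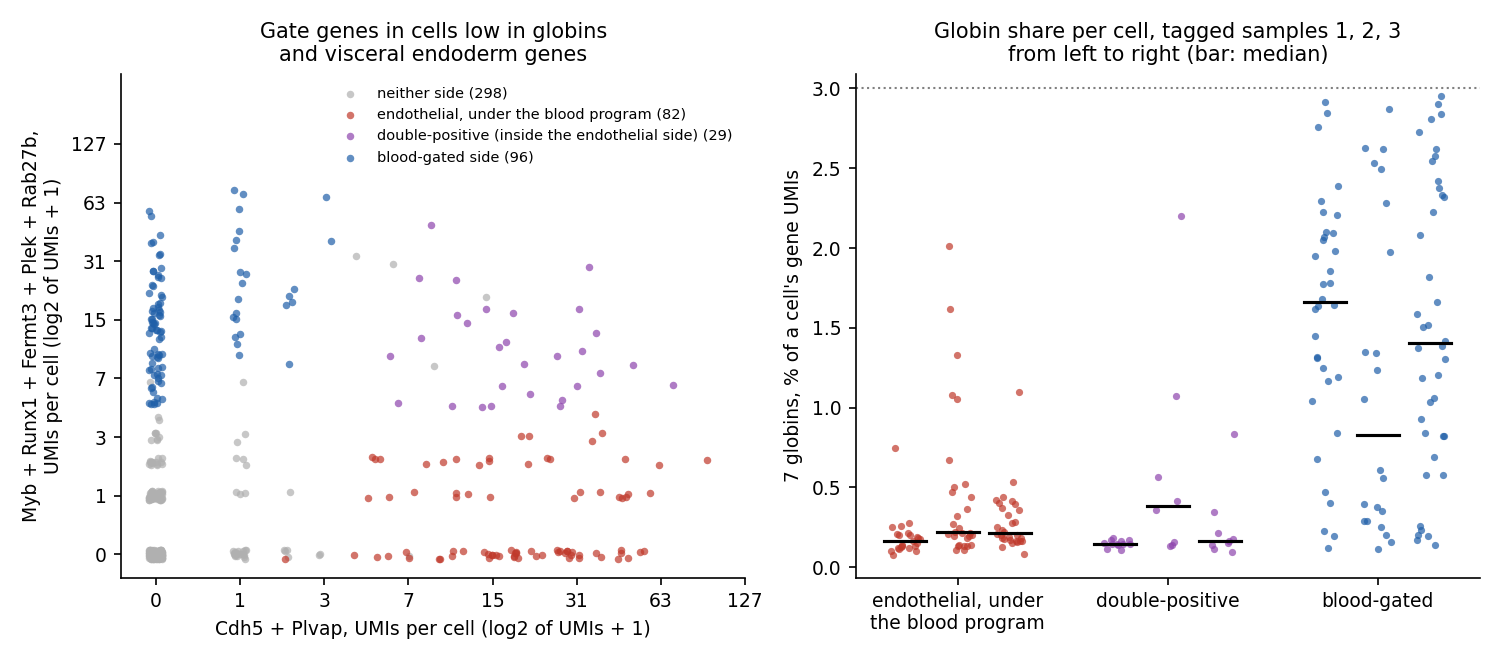
Left: UMIs of Cdh5 and Plvap (x) and of the 5 blood genes (y) in each of the 505 cells low in globins and visceral endoderm genes, both axes on a log2 scale of UMIs + 1. Right: share of gene UMIs in 7 globins per cell, with bars at the median of each tagged sample. The 29 double-positive cells carry both gene sets and mostly low globin shares, while blood-gated cells spread from near 0 up to the 3% limit.

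The blood progenitor label was met only in part. On the blood-gated side, 68 of 96 cells held at least 5 UMIs of the red cell genes Klf1, Epor and Hemgn together, and the median globin share was 1.40%. The gate thus took mostly cells with a red cell program, at globin levels running without a break into those of the cells left out. Of 648 cells with at least 3% globins and low visceral endoderm genes, 291 (44.9%) also met the blood UMI and Lmo2 limits. Ptprc, which encodes the pan-leukocyte antigen CD45, and Flt3 and Cd48 had 0 UMIs on both sides. Cd34, Kit, Gata2 and Spi1 were higher on the endothelial side, though all but Cd34 lost that call with globins under 1%. Gfi1b, Adgrg1, Csf2rb and Treml2 were higher on the blood-gated side, and Itga2b was called in neither direction. A subset of 31 blood-gated cells had globins under 1% of UMIs, 7, 11 and 13 by tagged sample. Of these 31, 13 met the red cell limit, 5 held at least 5 UMIs of the megakaryocyte genes Pf4, Gp9, Gp1bb, Gp5 and Ppbp, 4 held as many of the myeloid genes Csf1r, C1qb, Tyrobp, Fcer1g and Mpo, and 12 met none of these limits, with some cells meeting more than 1. Comparisons were repeated with globins under 1% on both sides, and that result is given where a call differs among the genes described, with the larger shifts in size gathered after the gene groups.

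Sums of raw counts, 1 for each side of each tagged sample, were compared with edgeR's quasi-likelihood test, two-sided, with Benjamini-Hochberg adjustment over all 8254 genes tested. Levels below are in CPM scaled by the trimmed mean of M-values (TMM), and differences are fitted log2 values, endothelial minus blood-gated, with their standard error (SE). At an adjusted p under 0.05, 4076 genes (49.4%) were called. Of these, 2251 (27.3%) were higher on the endothelial side and 1825 (22.1%) on the blood-gated side. The median difference over all genes tested was -0.0025. Differences over 2 in size were found in 809 genes of the endothelial direction and 137 of the blood-gated direction. Without tagged sample 3, 1087 of 8355 genes tested were called higher on the blood-gated side at any size, beside the 1825 above. With globins under 1%, 1555 (22.8%) of 6820 genes were higher on the endothelial side and 1121 (16.4%) on the blood-gated side. So many genes differed that a list's count means little without this background. A gene that varies from cell to cell with a gate gene is also not independent of how the cells were chosen.

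Most endothelial identity genes were far higher in the endothelial sums, with a few kept on both sides. Ramp2 (chr11:101246028-101259546, GRCm38), which encodes a subunit of the adrenomedullin receptor, stood at 838, 892 and 945 CPM against 3.13, 4.996 and 8.15 CPM. The log2 difference was 7.28 ± 0.17 (SE, n = 3 sums a side; adjusted p = 8.67e-11, edgeR). Kdr (chr5:75932827-75978458), the VEGF receptor that also marks the mesoderm giving rise to blood and vessels, stood at 506, 423 and 393 CPM against 3.13, 18.3 and 13.2 CPM. Its difference was 5.29 ± 0.27 (adjusted p = 2.69e-08, edgeR). Pecam1, a junction protein also found on blood cells, kept about 20 CPM on the blood-gated side: it stood at 162, 149 and 149 CPM against 20.0, 20.0 and 16.8 CPM, a difference of 3.03 ± 0.15. Tek, the angiopoietin receptor, stood at 110, 126.6 and 119 CPM against 10.0, 30.8 and 10.2 CPM, a difference of 2.91 ± 0.29. No sums of the 2 sides overlapped for these 4 genes, as was so for 59.0% of all genes tested.

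Of 32 endothelial identity genes, 28 passed the low-count filter, and these 28 were called higher on the endothelial side, with a median log2 difference of 6.44, or 6.21 with the 4 genes at 0 UMIs on the blood-gated side set to their bound. A gene that passes the filter only through its high side has to differ, so this count describes the list and supports nothing. The other members were Robo4 (13 UMIs against 0), Cav1 (7 against 0), Palmd (2 against 2) and Vwf (3 against 13). Egfl7, which encodes a secreted vessel protein, had the smallest difference of the 28, at 2.02 ± 0.10, and stood at 80.6, 81.6 and 91.7 CPM on the blood-gated side. The same direction was called for 27 of 27 members tested with globins under 1%.

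The genes with the largest differences included scavenger receptors and lymphatic or sinusoidal markers. Stab2 (chr10:86841198-87008025), a hyaluronan scavenger receptor, stood at 23.4, 147 and 84.9 CPM in the endothelial sums and had 0 UMIs in the blood-gated sums. It was at least 132-fold higher, with 3 counts over the blood-gated side as the floor (adjusted p = 0.000145, edgeR). Lyve1, a hyaluronan receptor, stood at 401, 1384 and 1193 CPM against 0.625, 3.33 and 2.55 CPM, a difference of 8.83 ± 0.61 (adjusted p = 2.45e-07, edgeR). Tagged sample 1 was lowest for both genes, by over 2-fold. Mrc1, the mannose receptor of macrophages and of some endothelia, stood at 79.7, 135 and 120 CPM against 1 UMI in all on the blood-gated side, a pooled ratio of 531 (95% counting interval 94.8 to 20998). Gpr182, an endothelial chemokine-scavenging receptor, had 626 UMIs against 1, a ratio of 692 (124 to 27371). Cldn5, the tight-junction claudin of endothelium, had 944 against 3, a ratio of 348 (119 to 1690). Rgs7bp, with 221 UMIs against 0, was at least 81.4-fold higher, and Dpysl3, with 238 against 0, at least 87.7-fold higher. Cd109, a membrane-anchored TGF-beta co-receptor, had 336 UMIs against 1.

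Promoter windows from RefSeq on GRCm38.p6 ran from 250 bases before to 50 bases after each gene's start. Those printed below belong to called members of the endothelial identity list and of the red cell genes described further on. The windows were searched on both strands for letters of known binding sites. For the ETS family the letters were CAGGAA. For the GATA family the letters were AGATAA. For the RUNX family they were TGTGGT, and for the SOX family AACAAT. Stab2 and Clec14a stand for the endothelial direction and Epor and Alas2 for the blood-gated direction, and were picked after the matches had been seen. Capitals mark matches, also those to the reverse complement. No matches overlapped.
Stab2, chr10:87007893-87008192, minus strand: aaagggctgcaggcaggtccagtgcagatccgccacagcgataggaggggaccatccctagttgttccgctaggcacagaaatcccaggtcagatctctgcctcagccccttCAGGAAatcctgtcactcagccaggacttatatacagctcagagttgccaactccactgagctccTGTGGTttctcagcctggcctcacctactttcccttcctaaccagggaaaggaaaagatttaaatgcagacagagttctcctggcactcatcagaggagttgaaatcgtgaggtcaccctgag
Clec14a, chr12:58269209-58269508, minus strand: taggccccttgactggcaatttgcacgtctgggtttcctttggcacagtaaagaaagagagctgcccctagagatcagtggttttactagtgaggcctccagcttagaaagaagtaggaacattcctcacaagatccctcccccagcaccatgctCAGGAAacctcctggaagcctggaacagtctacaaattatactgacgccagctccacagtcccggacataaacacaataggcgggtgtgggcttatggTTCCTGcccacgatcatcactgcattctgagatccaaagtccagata
Epor, chr9:21963527-21963826, minus strand: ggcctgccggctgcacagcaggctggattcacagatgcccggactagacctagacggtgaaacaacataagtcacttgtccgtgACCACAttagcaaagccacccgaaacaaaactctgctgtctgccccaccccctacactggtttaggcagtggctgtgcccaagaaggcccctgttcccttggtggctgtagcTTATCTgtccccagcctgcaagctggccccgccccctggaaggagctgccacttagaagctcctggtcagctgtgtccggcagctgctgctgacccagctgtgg
Alas2, chrX:150547167-150547466, plus strand: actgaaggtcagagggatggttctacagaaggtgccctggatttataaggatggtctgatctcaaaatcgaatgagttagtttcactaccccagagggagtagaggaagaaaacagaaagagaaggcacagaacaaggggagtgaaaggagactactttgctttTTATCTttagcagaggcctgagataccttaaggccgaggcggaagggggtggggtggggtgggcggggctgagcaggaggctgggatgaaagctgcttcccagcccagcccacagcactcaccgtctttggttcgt

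Of the 28 called endothelial identity genes, 15 had a window in the table, and 9 of these 15 (60.0%) held the ETS letters, beside 33.4% of 27025 genes. GATA letters were in 1 of the 15 (12.7% of all genes), RUNX letters in 1 (18.9%) and SOX letters in 2 (12.2%). Of the 20 called red cell genes, 15 had a window, and 5 held the GATA letters, 4 the ETS letters, 6 the RUNX letters and 3 the SOX letters. Of the called immune signalling genes higher on the endothelial side, 7 of 8 had a window, with 3 holding GATA and 4 holding ETS letters. Of the 5 surface genes higher on the endothelial side, 2 held ETS letters and 1 held SOX letters. A match of 6 letters is a description and not a bound site, and genes with several windows have more chance of one.

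Vessel-type genes were detected within the endothelial side without a split into arterial and venous cells being made. The 12 tested of 18 arterial and venous genes were called higher on the endothelial side, beside 27.3% of all genes tested, with a median of 4.63. Several members passed the low-count filter only through that side and had to differ, so this count is a description. Sox17, an arterial transcription factor, stood at 52.2, 44.0 and 41.2 CPM against 2 UMIs on the blood-gated side, a pooled ratio of 113 (30.8 to 937). Apln, the ligand of the apelin receptor, stood at 48.1, 48.2 and 35.6 CPM against 0.625, 0.833 and 1.02 CPM, a difference of 5.59 ± 0.36. Its receptor Aplnr, found on venous endothelium and mesoderm, stood at 62.1, 44.0 and 42.1 CPM against 1.25, 5.83 and 1.02 CPM. Flt4, the receptor for VEGF-C, stood at 52.8, 53.7 and 47.7 CPM against 0.625, 0.833 and 1.02 CPM. Nrp1 was the least even member: its blood-gated sums were 0.625, 49.1 and 20.4 CPM, against 78.5, 126 and 89.0 CPM, a difference of 2.17 ± 0.53 (adjusted p = 0.00449, edgeR). The blood-gated sum of tagged sample 2 also held the highest level of mesoderm markers, 179 CPM, whose part in this was not tested. The 6 members below the filter ran from Bmx, at 0 on both sides, to Nr2f2, with 36 UMIs against 8.

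Several Notch receptor, ligand and target transcripts were higher on the endothelial side. Notch1 stood at 80.3, 85.3 and 77.6 CPM, with 3 UMIs on the blood-gated side, a pooled ratio of 132 (44.6 to 641). Dll4, the Notch ligand of arterial endothelium, had 91 UMIs against 0 and was at least 33.5-fold higher (adjusted p = 6.68e-06, edgeR). Of the targets, Hes1 stood at 128, 83.3 and 74.4 CPM against 16.3, 10.8 and 12.2 CPM, a difference of 2.86 ± 0.25, and Hey1 and Nrarp were also called. Rbpj, the DNA-binding partner that Notch needs in all cells, stood at 30.5, 39.2 and 34.0 CPM against 36.3, 39.1 and 36.2 CPM, a difference of -0.10 ± 0.17 (adjusted p = 0.646, edgeR). In all, 6 of 8 tested members of 18 were higher on the endothelial side, beside 27.3% of all genes tested, with a median of 3.93. The others were Rbpj and Dlk1, and of the 10 below the filter Notch4 had the most UMIs on the endothelial side, 39 against 1. Notch1 and Dll4 passed the filter only through their high side and had to differ, so this count is a description too.

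Transcription factors split between the sides. Of 38 blood and endothelial factors, 30 were tested, with a median of 1.87. Of these 30, 19 were higher on the endothelial side, 8 on the blood-gated side and 3 passed in neither direction. The shares over all genes tested were 27.3% and 22.1%. Erg, an ETS factor of endothelium and stem cells, stood at 38.7, 40.6 and 29.9 CPM against 0, 2.498 and 1.02 CPM, a difference of 5.01 ± 0.45 (adjusted p = 1.95e-06, edgeR). Fli1, an ETS factor of endothelium and megakaryocytes, stood at 199, 148 and 137 CPM against 10.0, 33.3 and 38.2 CPM, a difference of 2.57 ± 0.30. The ETS factors Ets1 and Elk3 differed by 3.74 ± 0.22 and 5.88 ± 0.32. Etv2, the ETS factor that specifies both lineages earlier, stood at 21.1, 13.1 and 9.71 CPM against 6.25, 13.3 and 7.64 CPM and was not called (adjusted p = 0.105, edgeR). The SOX factors had few or no UMIs on the blood-gated side: Sox18 had 128 UMIs against 1, and Sox7, which was below the filter, had 70 against 0, at least 25.8-fold higher. Hhex, a homeobox factor of early endothelium and blood, differed by 2.29 ± 0.30. Mecom, a stem cell and endothelial factor, had 93 UMIs against 0, and Nfib had 206 against 0. The other members below the filter included Foxc2 (20 against 0), Foxc1 (12 against 0) and Hoxa9 (8 against 0).

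The factors higher on the blood-gated side were mostly those of red cells and megakaryocytes, with the Ikaros family members Ikzf1 and Ikzf2. Gata1 (chrX:7959260-7978071), the GATA factor of both lineages, stood at 114, 101 and 113 CPM against 4.69, 17.2 and 9.71 CPM in the endothelial sums, a difference of -3.40 ± 0.27 (adjusted p = 8.21e-07, edgeR). Tal1, a factor needed to make blood from mesoderm, was shared but unequal, at 136, 119 and 126.8 CPM against 50.4, 47.5 and 47.7 CPM, a difference of -1.39 ± 0.13. Gfi1b, a repressor that shuts down endothelial genes in emerging blood cells, stood at 35.6, 37.5 and 35.6 CPM against 0.586, 6.19 and 10.5 CPM, a difference of -2.75 ± 0.43. Zfpm1, the GATA1 cofactor FOG1, differed by -2.38 ± 0.18, Nfe2 by -3.70 ± 0.36, Ikzf1 by -3.25 ± 0.36, Ikzf2 by -1.42 ± 0.33 and the red cell factor Klf1 by -3.85 ± 0.47. Lyl1, a relative of Tal1, stood at 28.7, 19.3 and 31.5 CPM against 14.4, 18.3 and 31.6 CPM and was not called. Gfi1 had 3 UMIs against 0, too few for a comparison.

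For some factors shared by endothelium and early blood cells, the call was lost at the lower globin limit. Gata2, a progenitor factor, stood at 24.0, 19.3 and 10.5 CPM against 9.38, 9.99 and 3.56 CPM, a difference of 1.32 ± 0.40 (adjusted p = 0.0158, edgeR). At the lower globin limit the difference was 0.48 ± 0.45 (adjusted p = 0.422, edgeR). Spi1, the myeloid factor PU.1, stood at 10.6, 20.6 and 38.8 CPM against 1.88, 6.66 and 6.62 CPM, a difference of 2.15 ± 0.51 (adjusted p = 0.00400, edgeR). Of the 96 Spi1 UMIs on the endothelial side, 79 lay in double-positive cells, and without those cells its sums overlapped between the sides, at 6.50, 2.08 and 10.5 CPM against 1.82, 6.73 and 6.57 CPM before TMM scaling. At the lower globin limit Spi1 differed by 0.40 ± 0.49 (adjusted p = 0.549, edgeR). Of 29 factors tested there, 14 were higher on the endothelial side and 8 on the blood-gated side. Their median was 0.75, and the shares over all genes tested at that limit were 22.8% and 16.4%. Meis1 and Mef2c were also no longer called (adjusted p = 0.0684 and 0.180, edgeR).

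**Figure D2:**
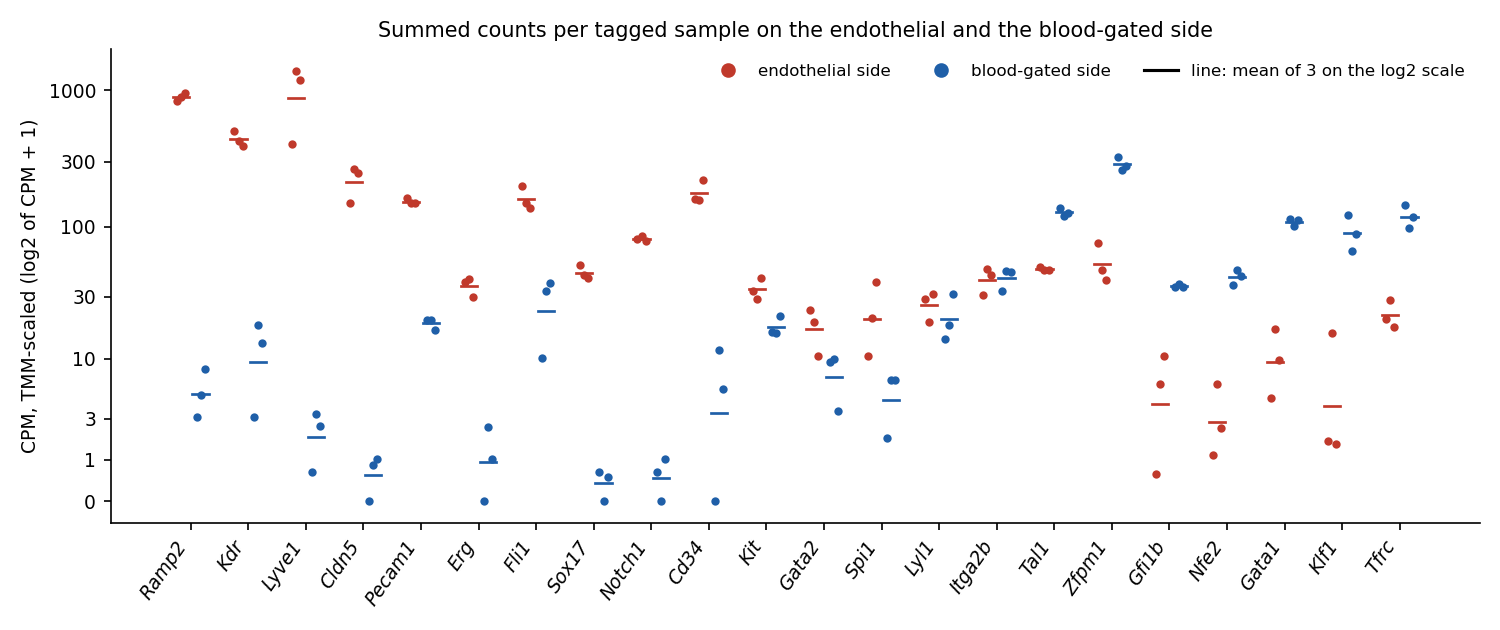
CPM of the summed counts (TMM-scaled, y axis on a log2 scale of CPM + 1) for 22 genes in tagged samples 1, 2 and 3, left to right, on the endothelial and the blood-gated side, with lines at the mean on that scale. Endothelial genes on the left and red cell genes on the right do not overlap between the sides, while Lyl1 and Itga2b do. Over all genes tested, 59.0% do not overlap.

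Progenitor surface genes were called in both directions. Of 20 listed, 12 were tested, with a median of 0.51. Of these 12, 5 were higher on the endothelial side, 3 on the blood-gated side and 4 passed in neither direction. The shares over all genes tested were 27.3% and 22.1%, so these counts are a description. Cd34, a sialomucin of endothelium and progenitors, stood at 159, 156 and 220 CPM against 0, 11.7 and 5.601 CPM, a difference of 5.05 ± 0.39 (adjusted p = 6.68e-07, edgeR). Kit, the stem cell factor receptor, stood at 33.4, 28.9 and 41.2 CPM against 16.3, 15.8 and 21.4 CPM, a difference of 0.92 ± 0.22 (adjusted p = 0.00383, edgeR). At the lower globin limit Kit differed by 0.27 ± 0.26 (adjusted p = 0.438, edgeR), and 3 members were called higher on the endothelial side and 4 on the blood-gated side, with a median of -0.01. Cd47, an inhibitory signal to phagocytes, differed by 1.81 ± 0.14, and Procr, the protein C receptor, by 5.01 ± 0.69. Ctla2b, also called, closely resembles the gate gene Ctla2a, so its reads may be shared with it. Itga2b, the integrin CD41 that is an early blood marker, did not separate the sides: it stood at 31.1, 48.2 and 43.7 CPM against 33.1, 46.6 and 45.8 CPM, a difference of -0.04 ± 0.21 (adjusted p = 0.889, edgeR).

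The 3 surface genes higher on the blood-gated side were Adgrg1, Csf2rb and Treml2. Adgrg1, the adhesion receptor GPR56 of stem cells, stood at 52.5, 64.1 and 55.5 CPM against 4.10, 13.1 and 24.3 CPM, a difference of -2.13 ± 0.36. Treml2, a receptor of myeloid and lymphoid cells, stood at 23.1, 30.8 and 33.6 CPM against 0, 7.57 and 3.23 CPM, a difference of -3.06 ± 0.52. Csf2rb, the shared chain of the IL-3 and GM-CSF receptors, differed by -2.51 ± 0.63, and its reads may be shared with the similar Csf2rb2. Among 18 cytokine receptor and signalling genes present in the counts, 8 were tested, with a median of 1.29. Of these 8, 5 were higher on the endothelial side and 2 on the blood-gated side, beside 27.3% and 22.1% of all genes tested. Those 2 were Epor, the erythropoietin receptor (-1.72 ± 0.23), and Stat5b (-0.97 ± 0.28). The other direction held Il6st, the shared IL-6 receptor chain (2.69 ± 0.34), the signalling adaptor Sh2b3 (2.25 ± 0.25), Socs2, Jak2 and Il3ra. Without tagged sample 2 this list gave 3 members higher on the endothelial side.

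Red cell genes lay on the blood-gated side. The 20 tested of 25 found in the files were called higher there, with a median of -2.5, and with globins under 1% 14 of 15 were. Several pass the filter only through that side and had to differ, so the count is a description. The members below the filter were Ermap (5 UMIs against 38), Slc4a1 (16 against 30), Rhag (1 against 27), Rhd (3 against 18) and Aqp1 (4 against 3). Klf1 stood at 123, 65.8 and 88.1 CPM against 1.76, 15.8 and 1.62 CPM. Tfrc, the transferrin receptor for iron uptake, stood at 143, 97.4 and 118 CPM against 20.5, 28.2 and 17.8 CPM, a difference of -2.43 ± 0.20 (adjusted p = 1.08e-06, edgeR). Haem synthesis enzymes were called together: Alas2 differed by -3.05 ± 0.43, Fech by -2.25 ± 0.19, Urod by -1.68 ± 0.16 and Alad by -1.29 ± 0.18. Alad was the exception with globins under 1% (adjusted p = 0.227, edgeR). Red cell skeleton genes included Epb42 (-4.57 ± 0.50), Sptb (-3.18 ± 0.37) and Tmod1 (-2.86 ± 0.35). In the endothelial sums, tagged sample 2 was highest for Klf1 and Alas2, with Alas2 at 18.6 CPM beside 2.93 and 4.04 CPM in tagged samples 1 and 3.

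Other genes with large differences in this direction included several known from red cells. Slc38a5, an amino acid transporter of erythroid cells, stood at 91.9, 66.6 and 86.6 CPM against 1.76, 8.95 and 4.85 CPM, a difference of -4.01 ± 0.32. Tspan33, a tetraspanin of red cell precursors, differed by -3.88 ± 0.35, and Cited4, a transcriptional co-regulator, by -3.79 ± 0.34. Gucy1a1, a subunit of the nitric oxide receptor, stood at 50.02, 89.1 and 54.0 CPM against 1.17, 7.57 and 10.5 CPM, a difference of -3.38 ± 0.41. Fgf3, a growth factor ligand, had the largest difference among called genes with at least 50 CPM on this side, -4.04 ± 0.87 (adjusted p = 0.00197, edgeR), and the least even sums: 122, 68.3 and 9.67 CPM against 1.76, 8.26 and 1.62 CPM. Its blood-gated sum in tagged sample 3 lay far below the others, close to the highest endothelial sum.

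Megakaryocyte genes were thinly covered, with 6 tested of 23 and a median of -0.57, or 0.14 without tagged sample 2. Of these, 2 were higher on the endothelial side and 1 on the blood-gated side, beside 27.3% and 22.1% of all genes tested. Fyb, an adaptor of platelets and lymphocytes, was higher on the blood-gated side (-2.85 ± 0.46), and Clec1b, the podoplanin receptor CLEC-2, was higher on the endothelial side, with 212 UMIs against 3, a pooled ratio of 78.1 (26.4 to 382). Stim1, a calcium sensor, was also higher there (1.55 ± 0.37), but not without tagged sample 3 (adjusted p = 0.0595, edgeR) or with globins under 1% (adjusted p = 0.0514, edgeR). Pf4, platelet factor 4, stood at 9.96, 10.3 and 17.8 CPM against 6.25, 56.6 and 13.2 CPM, so tagged sample 2 carried most of it, and was not called (adjusted p = 0.248, edgeR). At the lower globin limit Pf4 was higher on the blood-gated side by 2.19 on the log2 scale (adjusted p = 0.00125, edgeR), and 4 members were called in that direction and 1 in the other. Ppbp, Gp6 and Tbxas1 had 0 UMIs on both sides. F2rl2, Gp9 and Gp1bb had 0 on the endothelial side and 9, 3 and 2 on the blood-gated side.

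Of 26 macrophage and granulocyte genes, 4 were tested, 12 had 0 UMIs on the endothelial side and 12 on the blood-gated side, and C1qa, C1qb, Adgre1, Cd14, Elane and S100a8 were at 0 on both. Mrc1, Maf and Alox5ap were higher on the endothelial side. Maf, a factor of macrophages and lymphatic endothelium, stood at 199, 272 and 239 CPM against 1.88, 4.16 and 3.06 CPM, a difference of 6.29 ± 0.24. Alox5ap, the activator of leukotriene synthesis, stood at 39.3, 42.7 and 68.7 CPM against 0.625, 10.8 and 5.601 CPM, a difference of 3.21 ± 0.44. Csf1r, the receptor that defines macrophages, had 5 UMIs against 0. Of 14 immune signalling and cytoskeleton genes tested, 8 were higher on the endothelial side and 2 on the blood-gated side (Was and Rac2). Their median was 1.10, and the shares over all genes tested were 27.3% and 22.1%. Lcp2 and Lcp1 differed by 2.85 ± 0.44 and 2.75 ± 0.43. Lyn, a Src-family kinase, stood at 64.5, 66.7 and 67.9 CPM against 12.5, 29.97 and 28.5 CPM, a difference of 1.49 ± 0.24. At the lower globin limit Lyn differed by 0.24 ± 0.21 (adjusted p = 0.395, edgeR) and the counts were 2 and 3 of 11. Without tagged sample 3, the list gave 3 members higher on the endothelial side.

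Most tested matrix, junction and BMP genes were higher on the endothelial side, many of them with few UMIs on the other, so that the counts are a description. Of 35 basement membrane and adhesion genes, 29 were tested and 26 were higher there, beside 27.3% of all genes tested, with a median of 3.36. Sparc, a secreted collagen-binding protein, stood at 955, 1202 and 1228 CPM against 21.9, 93.3 and 37.7 CPM, a difference of 4.55 ± 0.31. The collagen IV genes Col4a1 and Col4a2 differed by 3.59 ± 0.22 and 3.36 ± 0.23, and the integrin subunit Itga6 by 4.89 ± 0.29. Lamb1, Lamc1 and Dsp were not called. For BMP and TGF-beta, 11 of 16 tested members were higher on the endothelial side, beside 27.3% of all genes tested, with a median of 1.88. Id3, a direct BMP target, stood at 311, 321 and 256 CPM against 5.63, 14.2 and 9.67 CPM, a difference of 4.95 ± 0.20, and the receptor Acvrl1 had 196 UMIs against 2. Smad7, the inhibitor of the pathway, was the member called in the other direction, at 30.01, 35.0 and 39.7 CPM against 12.9, 13.8 and 4.85 CPM (-1.69 ± 0.29).

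**Figure D3:**
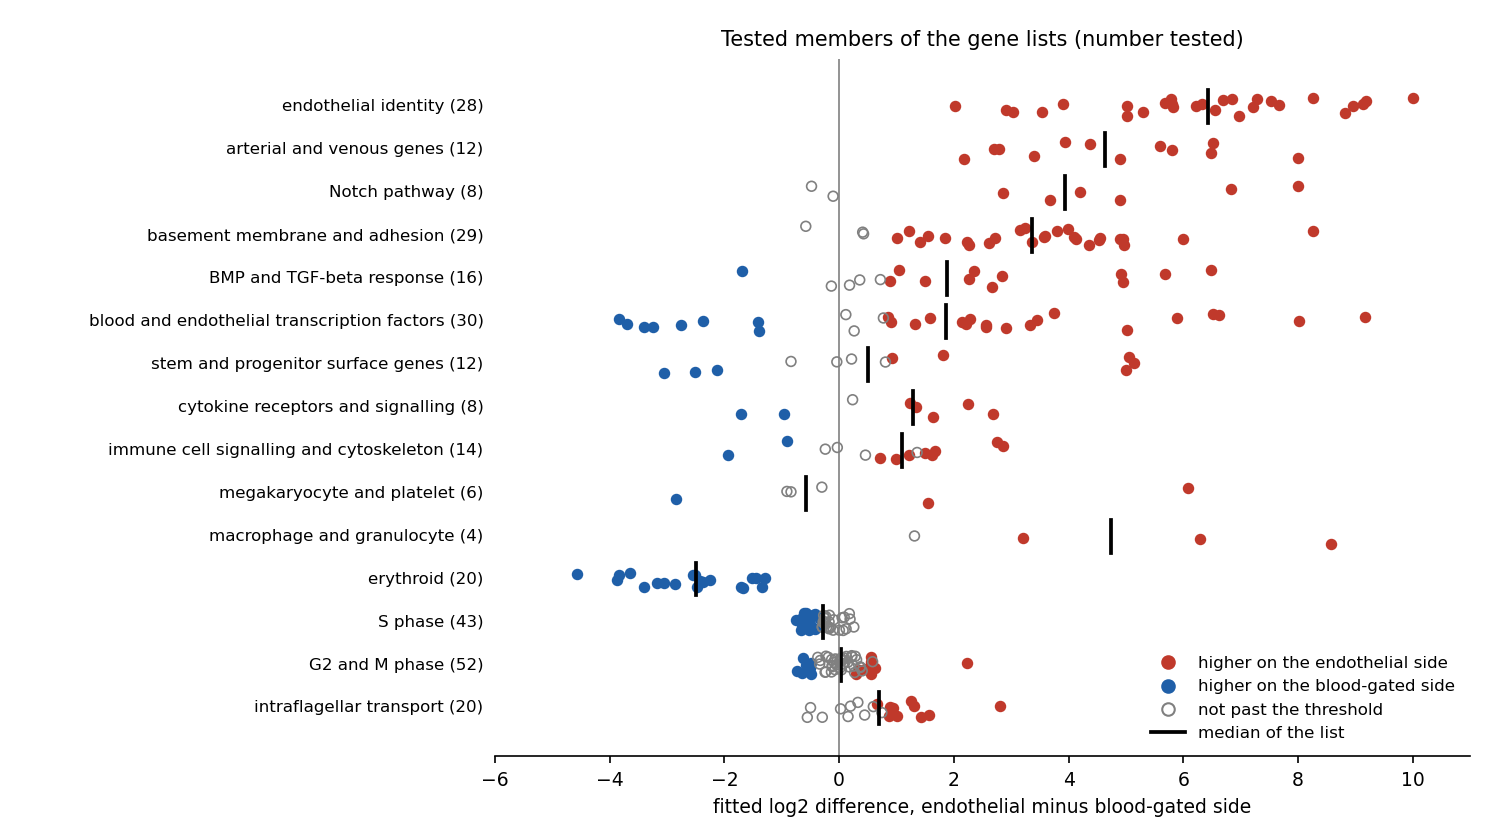
Fitted log2 difference, endothelial minus blood-gated side, of each tested member of 15 gene lists, with the number tested in brackets and a bar at the list's median. Filled points passed an adjusted p of 0.05 in edgeR. Endothelial identity genes lie to the right and red cell genes to the left, while stem and progenitor surface genes and transcription factors fall on both sides.

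Several differences kept their call but not their size with globins under 1% on both sides. Kdr then differed by 4.05, Ramp2 by 6.34, Lyve1 by 7.77, Cd34 by 3.49, Erg by 3.49 and Fli1 by 1.38. Alox5ap differed by 1.59 and Lcp2 by 1.12. In the other direction, Nfe2 differed by -4.65, Ikzf2 by -2.26, Csf2rb by -4.85, Fyb by -3.95, Gucy1a1 by -4.67 and Alas2 by -2.31. Il3ra, Socs2, Ctla2b, Rac2, Epb42 and Hemgn were below the low-count filter at that limit.

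Cell cycle genes differed little in size. Of 43 S-phase genes, 18 were higher on the blood-gated side and 25 were not called, with a median of -0.27, and without tagged sample 3 the count was 11. Nasp, a histone chaperone, stood at 781, 660 and 701 CPM against 461, 438 and 438 CPM, a difference of -0.68 ± 0.08. Of 52 G2 and M phase genes tested, 8 were higher on the endothelial side and 7 on the blood-gated side, with a median of 0.04. Over all genes tested, 27.3% were higher on the endothelial side and 22.1% on the blood-gated side. Mki67, the proliferation antigen Ki-67, was higher on the blood-gated side by 0.63 on the log2 scale, at 337, 371 and 346 CPM against 225, 235 and 222 CPM. The series was set up around primary cilia, which are built by intraflagellar transport. Of 32 transport genes, 20 were tested, and 10 were higher on the endothelial side with 10 not called, with a median of 0.70. Arl13b, a ciliary membrane GTPase, stood at 39.9, 42.7 and 32.4 CPM against 15, 13.3 and 14.3 CPM, a difference of 1.43 ± 0.20 (adjusted p = 9.41e-05, edgeR).

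Markers of other yolk sac cell types were present at low levels on both sides. Of 10 visceral endoderm markers, 8 were tested and 0 were called by edgeR, with 0 at an unadjusted p under 0.05 and 0 by DESeq2. Their summed level was 304 to 585 CPM on the endothelial side and 329 to 649 CPM on the blood-gated side, with the blood-gated sum of tagged sample 2 highest, and Alb was at 0. For extraembryonic mesoderm, 6 of 11 were tested and 0 were called, with 1 at an unadjusted p under 0.05 and 0 by DESeq2, at 68.1 to 157 CPM against 15.8 to 179 CPM. That gene was Foxf1, which passed with the tagged sample as a replicate block (difference 1.47 ± 0.40, adjusted p = 0.0101, edgeR) against 1.25 ± 0.56 without it (adjusted p = 0.0811, edgeR). Of 8 trophoblast markers, 3 were tested, and Plac1 was higher on the endothelial side (4.88 ± 0.37). Their sums were 163 to 183 CPM against 40.7 to 186 CPM, with Tpbpa and Prl3d1 at 0. The part of these cells in the results was not tested.

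The double-positive cells made up 26.1% of the endothelial side (29 of 111, 95% exact binomial interval 18.2 to 35.3), covering counting error only. By tagged sample the share was 34.3%, 21.6% and 23.1%, with overlapping intervals. They were deeper than the other endothelial cells, with a median of 50836 UMIs against 30003, and a fixed UMI limit is met more easily at depth. Cells were also thinned to 20000 UMIs each, with 26 shallower endothelial cells left out. The blood limits were then met by 14 of 85 endothelial cells (16.5%, 9.31 to 26.1). They were met by 6 of 515 visceral endoderm-gated cells (1.17%, 0.429 to 2.52) and 64 of 96 blood-gated cells (66.7%, 56.3 to 76.0). Thinning thus also dropped cells that had been chosen for the blood genes. Unthinned, that share was 6.88% (39 of 567) in visceral endoderm-gated cells, at a median of 56338 UMIs. Runx1, which counts toward the blood UMI limit, had a UMI in 403 of those 567 cells. It stood there at 40.6, 33.4 and 27.7 CPM in tagged samples 1, 2 and 3, each above the other endothelial cells of the same tagged sample. The visceral endoderm shares, thinned or not, are thus no background rate for cells without blood genes. Scrublet, a doublet caller, marked 0 of the 29 cells, 1 of the 111 and 3 of the 96 blood-gated cells. Runx1 was detected in 27 of the 29 cells and Myb in 10. In 13 of them, Myb and Runx1 alone stayed under 5 UMIs, so that Fermt3, Plek or Rab27b completed the limit.

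Outside the gate genes, levels of most endothelial genes in double-positive cells lay closer to the other endothelial cells than to the blood-gated side. These levels are CPM of the summed counts without further scaling, given without a test. Kdr stood at 531, 347 and 221 CPM in double-positive cells of tagged samples 1, 2 and 3, against 498, 466 and 470 CPM in the other endothelial cells and 3.04, 18.5 and 13.1 CPM on the blood-gated side. Cd34 stood at 178, 159 and 173 CPM against 147, 157 and 242 CPM and 0, 11.8 and 5.56 CPM. Notch1 stood at 90.9, 83.6 and 18.6 CPM against 73.6, 87.3 and 104 CPM in the other endothelial cells, and Sox17 at 60.6, 25.1 and 0 CPM against 46.6, 54.1 and 59.5 CPM. Of 353 genes at least 4-fold higher in the other endothelial cells, with at least 50 CPM there, 348, 333 and 282 lay closer to the endothelial level, fewest in tagged sample 3. Of 45 genes that much higher on the blood-gated side, 42, 20 and 28 lay closer to the endothelial level, fewest in tagged sample 2. Double-positive cells had passed the endothelial gate, and the 353 and 45 genes were chosen by the other endothelial and the blood-gated sums. Closeness to the endothelial level is thus not independent of the choice, and these counts are a description.

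Spi1, Alox5ap and Meis1, picked after their values were seen, stood higher in the double-positive cells than in either other group. Spi1 stood at 15.8, 58.5 and 104 CPM, against 6.50, 2.08 and 10.5 CPM in the other endothelial cells and 9.74, 14.9 and 21.4 CPM in blood-gated cells with globins under 1%. It was detected in 18 of 29, 15 of 82 and 8 of 31 cells, and in 3 of 567 visceral endoderm-gated cells. Alox5ap stood at 59.3, 83.6 and 109 CPM against 23.8, 22.9 and 51.3 CPM and 3.25, 24.3 and 16.4 CPM. Meis1, a homeobox factor of progenitors, stood at 60.6, 66.9 and 50.6 CPM against 29.2, 40.5 and 39.7 CPM and 6.49, 37.4 and 28.0 CPM. For these 3 genes each double-positive sum lay above the other endothelial sum of the same tagged sample and above its low-globin blood sum. Double-positive cells were chosen for blood genes, so genes that follow those from cell to cell are not independent of the choice. Csf1r was at 5 UMIs in 3 double-positive cells and 0 in the other endothelial and blood-gated cells, too few to rank. The limit of 5 UMIs over the 5 myeloid genes was met by 4 of the 29 double-positive cells, 0, 1 and 3 by tagged sample. It was met by 1 of the 82 other endothelial cells and by 4 of the 31 low-globin blood-gated cells.

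Other blood genes reached intermediate levels, chiefly in tagged samples 2 and 3, except that Adgrg1 in tagged sample 3 lay above the blood-gated sum. Adgrg1 stood at 5.27, 37.6 and 71.9 CPM in double-positive cells, 3.25, 1.04 and 3.5 CPM in the other endothelial cells and 51.05, 64.8 and 55.1 CPM on the blood-gated side. Gfi1b stood at 1.32, 12.5 and 26.6 CPM against 0, 3.12 and 3.5 CPM and 34.6, 37.9 and 35.4 CPM. Tal1 was above the other endothelial cells in all 3, at 69.8, 71.1 and 55.9 CPM against 35.7, 36.4 and 44.3 CPM, and below the blood-gated 132, 120 and 126 CPM. Red cell genes were low: 3 of 29 cells, all in tagged sample 2, reached 5 UMIs of Klf1, Epor and Hemgn together, and the median globin share was 0.155%. Klf1 stood at 1.32, 18.8 and 5.33 CPM against 119, 66.5 and 87.4 CPM on the blood-gated side. In tagged sample 2 visceral endoderm markers summed to 935 CPM in these cells, beside 299 and 296 CPM in tagged samples 1 and 3, and the part of this was not tested.

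**Figure D4:**
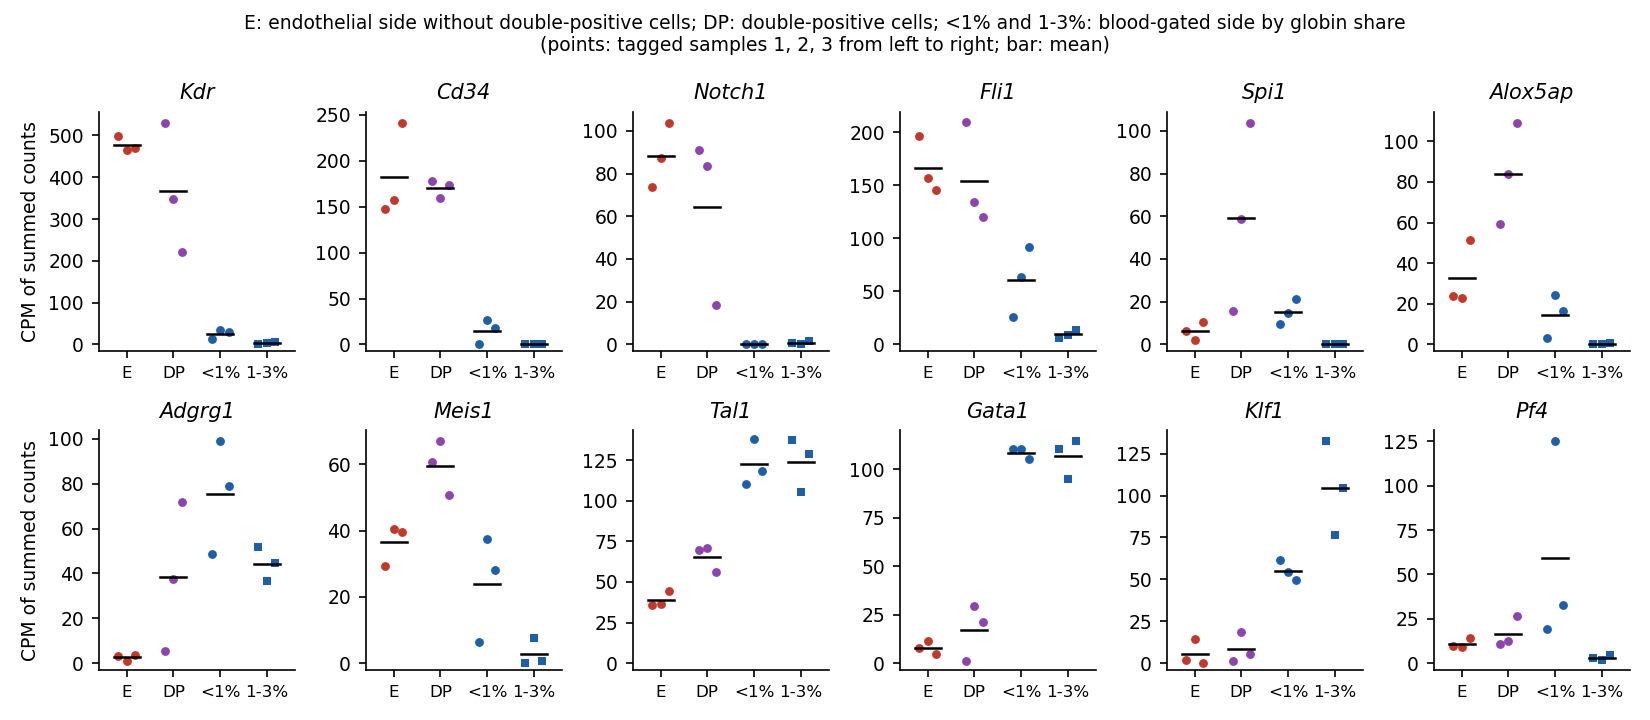
CPM of summed counts (y) for 12 genes in endothelial cells without double-positive cells, double-positive cells, and blood-gated cells with globins under 1% and from 1% to 3%, with points for tagged samples 1, 2 and 3 and bars at the mean. Kdr and Cd34 are shared by the first and the second group, Spi1, Alox5ap and Meis1 have their highest means in double-positive cells, and Gata1 is alike in both blood-gated groups.

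Within the blood-gated side, the 31 low-globin cells and the 65 others differed in more than red cell genes, as a description without a test. Myb, a gate gene, stood at 84.4, 87.8 and 62.5 CPM in low-globin cells against 32.2, 26.0 and 37.9 CPM in the others. Fli1 stood at 26.0, 63.5 and 92.1 CPM against 5.98, 9.18 and 13.9 CPM, and Mef2c, a MADS-box factor of megakaryocytes and endothelium, at 110, 155 and 253 CPM against 13.5, 21.4 and 26.2 CPM. Pf4 stood at 19.5, 125 and 32.9 CPM against 2.99, 1.53 and 4.37 CPM, and Lyn at 38.9, 63.5 and 64.1 CPM against 5.98, 3.06 and 12.4 CPM. Spi1 was found only in the low-globin cells of these 96, with 24 UMIs against 0, and Cd34 likewise, with 25 against 0. Gata1 was alike, at 110, 110 and 105 CPM against 111, 94.9 and 114 CPM, and so was Tal1, at 110, 138 and 118 CPM against 138, 106 and 129 CPM. Klf1 was lower in the low-globin cells, at 61.7, 54.2 and 49.3 CPM against 132, 76.5 and 104 CPM. No megakaryocyte or myeloid cell by the 5-UMI limits was found among the 65 others, of which 55 met the red cell limit. The low-globin cells of tagged sample 3 also carried trophoblast markers at 276 CPM, beside 35.7 and 52.3 CPM in tagged samples 1 and 2. Among the others, trophoblast markers stood at 41.9, 295 and 97.7 CPM and mesoderm markers at 14.2, 314 and 80.9 CPM, so tagged sample 2 was highest there. The part of these in the values was not tested.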

How the data were processed

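The deposited files hold raw UMI counts per gene and cell, with a matrix for each tagged sample. Per the file headers, Cell Ranger 6.1.2 wrote them, and the authors deposited them without normalization. GRCm38 and mm10 are named in the submitters' processing notes. The sources used here do not give how cells were assigned to tags. Tag and reporter rows were left out, leaving 30969 genes, of which 30900 matched GENCODE M21, used for positions. Doublets were kept, with removal by Scrublet (scanpy 1.11.5) as an alternative. Precision is limited by 3 tagged samples a side.

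The raw counts of each side of each tagged sample were summed and fitted in edgeR 4.0.16 (R 4.3.3) with TMM scaling, filterByExpr, glmQLFit and glmQLFTest, leaving out 19 gate genes. DESeq2 1.42.0, other scalings, filters, gates, depths and leaving out each tagged sample were alternatives. The steps were tested on simulated data. The sums are paired because both sides come from the same tagged sample: their deviations correlated by 0.10, 0.05 and 0.04 across genes, which are not independent replicates.

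The named genes were, in each direction, the 8 largest differences among called genes with at least 50 CPM on the higher side and no overlap, the 3 smallest p-values in each list, and a fixed set of blood and endothelial genes. Other list members are named where they are few or complete a pathway. The cells, lists and rules were chosen with earlier results of these data known. Motif counts in red cell genes were added after seeing the data. The floor for genes at 0 was 3 counts, and ratios with 1 to 3 counts carry exact 95% intervals. Intervals cover counting error only. The gene sum for the red cell limit was chosen after seeing the data. Some genes that the rule names are not reported here.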

Additional observations from a re-analysis of the deposited data

How the results depend on the processing

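In no alternative was a called gene called in the opposite direction. With globins under 1%, the genes called fell from 4076 to 2676, those higher on the blood-gated side to 1121, and blood-gated cells to 31. List members higher on the endothelial side were then 3 for stem and progenitor surface genes, 3 for cytokine receptors, 1 for megakaryocyte genes, 2 for immune signalling and 3 for G2 and M phase. This limit leaves fewer cells and tests 6820 genes. The stricter gate left 63 blood-gated and 14 double-positive cells. With no low-count filter, 10 cytokine receptor genes were higher on the endothelial side. Immune signalling gave 5 members without the double-positive cells and 5 with sums thinned to the smallest. Leaving out each tagged sample in turn gave 2800 to 3697 genes called, 1087 to 1581 of them higher on the blood-gated side. For list members higher on the endothelial side the ranges were 3 to 5 for cytokine receptors, 1 to 3 for megakaryocyte genes, 3 to 7 for immune signalling and 4 to 6 for G2 and M phase. For S-phase genes higher on the blood-gated side the range was 11 to 17. Krt8, not called in the comparison (-0.29), reversed to 0.67 with Scrublet doublets removed (adjusted p = 0.0219, edgeR). Krt8 was called in the other direction with the looser gate (-0.86), with the blood side taken by Myb and Runx1 (-0.62) and without tagged sample 1 (-0.66), and the cause was not tested. DESeq2 called 3113 genes. In the paired fit with the tagged sample as a replicate block, 4077 genes were called, and among the named genes no call other than that of Foxf1 changed. Across the named genes and these settings 1441 values kept their side of the threshold, 16 gained a call, 6 lost one and 1 reversed. The lost calls were Gata2, Spi1, Kit, Lyn and Stim1 with globins under 1%, and Stim1 without tagged sample 3. For genes with under 10 UMIs on both sides, depth allows no comparison.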
